A study of Drosophila melanogaster with 2 samples.

Results

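Fatty acid synthesis and fat storage were followed through 7 genes of the fruit fly Drosophila melanogaster, namely AcCoAS, ACC, FASN1, Desat1, SREBP, mdy and bmm. The genes were taken by name, with earlier results of these data known. Every peak summit inside one of them or within 500 bp of one of its annotated start sites was assigned to it. They are 7 of 13945 protein-coding genes on the chromosome arms, and 11 of the 5703 summits in the list of reproducible peaks fell to them. The peaks come from chromatin immunoprecipitation followed by sequencing (ChIP-seq), in which DNA bound to a protein is recovered with an antibody and mapped to the genome. All chromatin came from 1 group, whole prepupae of the strain CG6854-GFP, with males and females pooled and an age given as unknown. These flies stably carried a transgene for CG6854 with GFP fused to its C terminus, and an anti-GFP antibody was used on sonicated chromatin of 2 biological replicates, numbered 2 and 3. The labels name the target as CTPsyn, CTP synthase, the enzyme that makes the nucleotide CTP from UTP. In RefSeq, Ctps and the overlapping gene CG45071 both have CG6854 among their former names, and the labels do not settle which product was tagged. The labels give neither the promoter nor the insertion site of the transgene. A whole animal mixes all tissues, so a weak peak could be weak everywhere or strong in few cells, which cannot be told apart here.

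Animals make fat from acetyl-CoA. AcCoAS makes acetyl-CoA from acetate, ACC carboxylates acetyl-CoA to malonyl-CoA in the committed step, FASN1 builds saturated fatty acids from malonyl-CoA, and Desat1 adds a double bond. SREBP is a membrane-bound transcription factor that is cut free to switch on these genes, and in flies, which make no sterols, it responds to other lipids. The enzyme encoded by mdy (midway) is the diacylglycerol acyltransferase that completes triglyceride, and bmm (brummer) encodes the lipase of lipid droplets that breaks triglyceride down again. Larvae lay down this fat, mainly in the fat body, and the prepupa, which no longer feeds, lives on it.

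DNA at or near several of the summits, but not that of ACC, is given here so that it can be read beside the values. The FASN1, AcCoAS, mdy and bmm leader stretches lie within 100 bp of their summits but do not reach the summit base. It was read 5′ to 3′ on the strand of the gene from the RefSeq copy of dm6 (Release 6), with capitals for the motif matches described further on. The first stretch is the start site of FASN1 with its upstream bases and a TATAAA match, the next a 30-base piece of the AcCoAS leader with an ecdysone response element match on the opposite strand, and those after it the intronic summits of Desat1 and SREBP, which held no match. The mdy piece holds a forkhead match, also on the opposite strand, beside the strongest mdy summit. The last 3 are the strongest bmm summit, which lies in an intron and holds GAGAGAG on the opposite strand, the intronic bmm summit nearest to the start site, which holds a GATA and a TATAAA match on the opposite strand, and a 30-base piece of the bmm leader with a TATAAA match.
FASN1, 2L:3056539-3056627, plus strand: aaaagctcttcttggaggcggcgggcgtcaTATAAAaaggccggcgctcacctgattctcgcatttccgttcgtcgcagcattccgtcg
AcCoAS, 3L:21280052-21280081, minus strand: ccgcccatgtcTCATTGAACTtgaagagcg
Desat1, 3R:12442951-12443051, plus strand: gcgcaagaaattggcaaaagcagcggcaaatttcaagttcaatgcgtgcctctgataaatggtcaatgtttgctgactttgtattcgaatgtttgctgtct
SREBP, 3L:19794427-19794527, plus strand: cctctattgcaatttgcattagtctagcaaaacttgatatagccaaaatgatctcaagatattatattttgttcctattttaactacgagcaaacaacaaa
mdy, 2L:16816904-16816933, plus strand: ttttgtgtgttTGTTTACgcttcttcggcg
bmm strongest summit, 3L:14781153-14781353, minus strand: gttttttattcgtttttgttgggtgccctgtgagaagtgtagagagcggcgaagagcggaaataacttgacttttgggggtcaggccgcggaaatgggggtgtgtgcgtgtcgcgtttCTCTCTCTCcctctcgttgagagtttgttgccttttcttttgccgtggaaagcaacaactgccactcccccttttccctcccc
bmm intronic summit nearest the start, 3L:14784894-14785094, minus strand: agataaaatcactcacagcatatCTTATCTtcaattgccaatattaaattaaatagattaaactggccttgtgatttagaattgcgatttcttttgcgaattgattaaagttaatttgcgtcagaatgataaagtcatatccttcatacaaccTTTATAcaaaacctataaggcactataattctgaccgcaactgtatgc
bmm leader, 3L:14786354-14786383, minus strand: cgcaatgaatgTATAAAagggggctgccat

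Peak strength is given throughout as the authors' signal value per peak, whose scale is not given in the sources used here. It is used only to order and describe peaks within 1 list. The reproducible peaks, kept after the irreproducible discovery rate (IDR) procedure that compares peak ranks between replicates, had signals of 136.3 to 2488 with a median of 200.1. They were the strongest peaks of a relaxed list of 30000 peaks from the pooled replicates, and each replicate had its own relaxed list of 30000. The pooled relaxed list was deposited as peaks and background for input to the IDR procedure. A weak entry in it need not mark binding. Read depth is unknown, and the length of the relaxed lists does not show it because each ended at the same number of peaks. All 5703 reproducible peaks shared 1 q-value (−log10 q of 4.18), so the q-value does not separate them. Ctps itself held 9 reproducible summits, the strongest at a signal of 2008, and binding and extra transgene copies cannot be told apart at that locus. No untagged animals were analysed here, so the values below are descriptions of 1 group without a test.

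All 7 genes of fat synthesis and storage held at least 1 reproducible summit, beside 3190 of 13945 protein-coding genes (22.9%). Because the 7 genes were chosen with earlier results of these data known, setting them beside this share is not a test. A summit lay within 500 bp of a start site, here called a promoter summit, in 5 of the 7, namely ACC, FASN1, AcCoAS, mdy and bmm, beside 20.0% of protein-coding genes. Desat1 and SREBP had their summits farther inside the gene. The 7 genes are long, with a median of 9917 bp beside 2166 bp for all protein-coding genes, and a long gene has more room for a summit. Among the 2301 protein-coding genes between 5045 and 17748 bp, the range of the 7, the share with a summit was 42.7% and the share with a promoter summit 35.0%. The strongest summit of a gene had a median signal of 221.9 over the 7 genes and 224.9 over the 3190 genes with a summit. The 7 genes thus all had a peak, but the typical peak among them was not stronger than that of other genes with one.

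**Figure D1:**
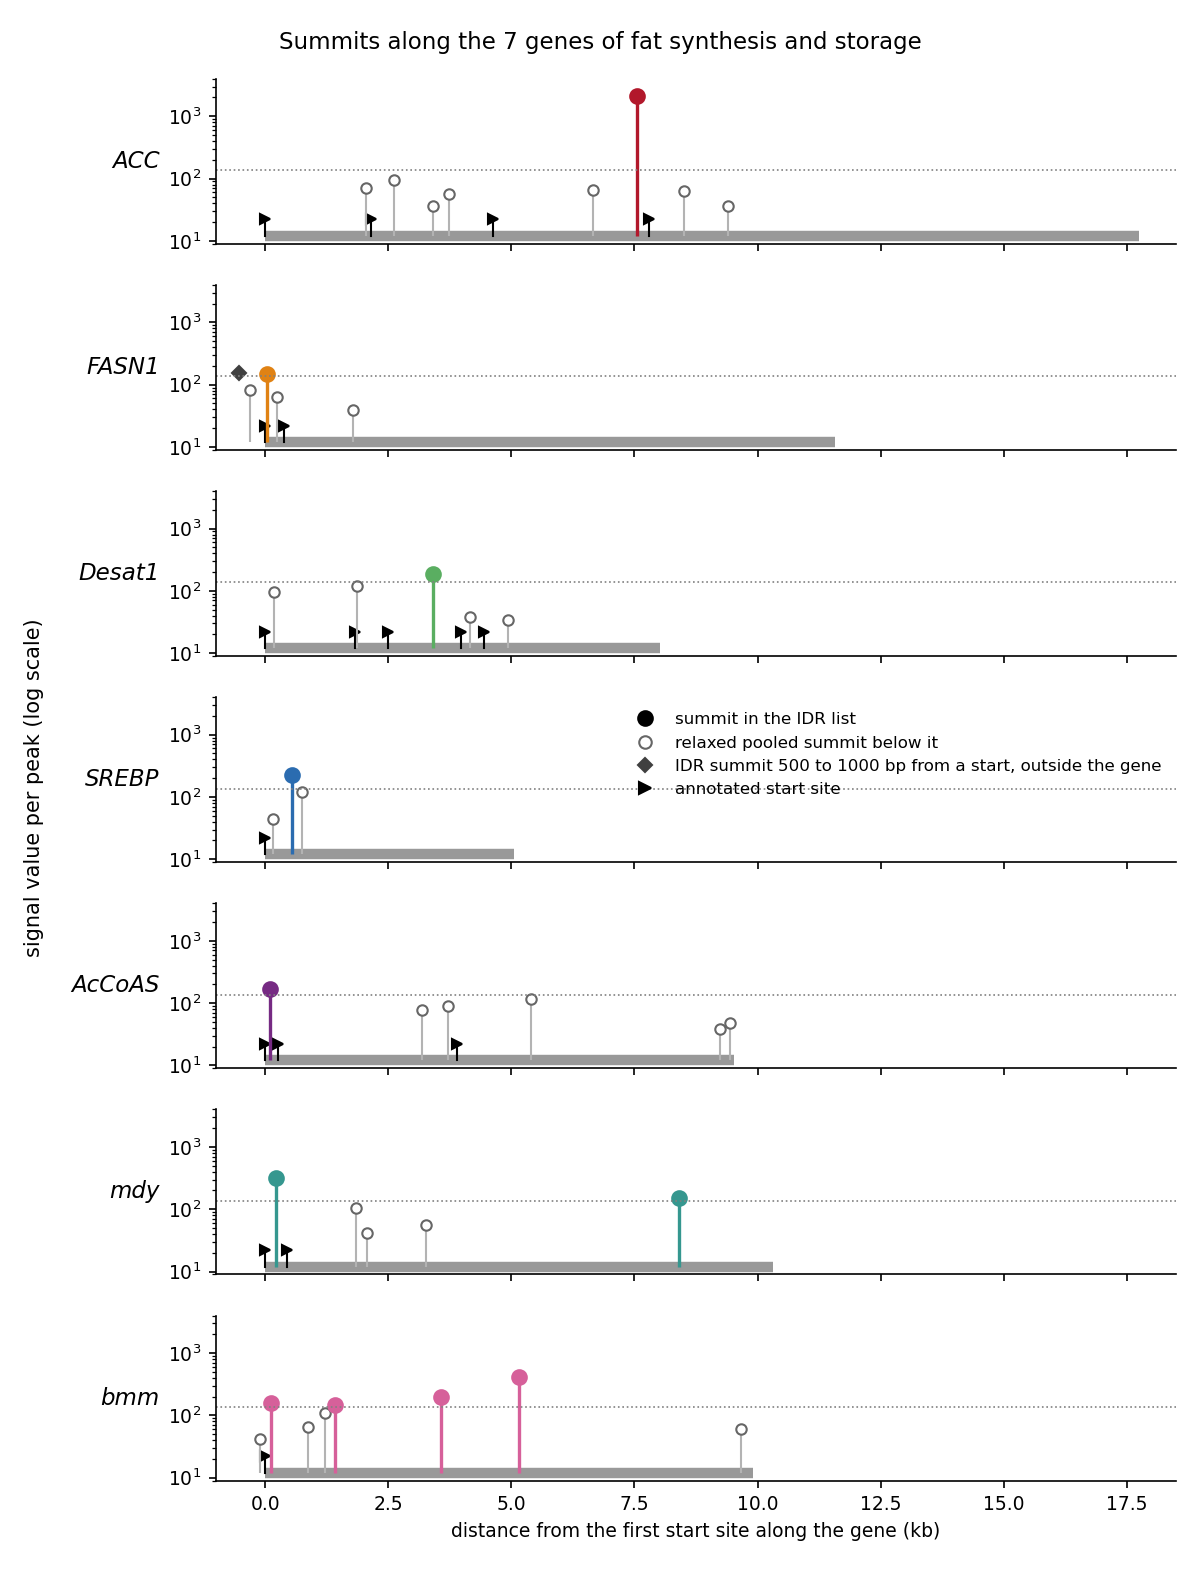
Summits along the 7 genes, with distance from the first start site in kb on the horizontal axis and the signal value per peak on a log axis. Filled circles are reproducible (IDR) summits, open circles weaker summits of the relaxed pooled list, black arrows annotated start sites, the dark diamond the reproducible summit at the end of FASN2 outside the window of FASN1, and the dotted line the weakest reproducible peak; ACC holds 1 tall summit inside the gene, and bmm 4 summits from its start inward.

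The acetyl-CoA supplier AcCoAS (FBgn0012034, 3L:21270722-21280243, minus strand) had 1 summit at its first start site. The peak spanned 3L:21279937-21280366 with its summit 91 bp past the start of transcript RA, in the 5′ UTR, and 171 bp before the start of transcript RD. Its signal was 167 in the reproducible list (rank 4067), 80.8 in replicate 2 (rank 4408) and 84.6 in replicate 3 (rank 4623). The rank was thus similar in both replicates. A weaker summit inside the gene, 1496 bp past the start of transcript RB, stayed below the reproducible list at 116.0 (pooled rank 7353).

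ACC (FBgn0033246, 2R:7974115-7991862, minus strand), the gene of the committed step, carried by far the strongest of the 11 summits. Its peak spanned 2R:7983920-7984547, 628 bp, with a signal of 2133, rank 5 of 5703. Replicate 2 gave 1176 and replicate 3 gave 964, rank 15 in each list, with summits 1 bp and 4 bp from the reproducible one. The signal was 5.16 times that of the next strongest summit among the 7 genes, 4.73 times in replicate 2 and 5.51 times in replicate 3. The summit did not lie at the start of the gene but 7554 bp inside it, 245 bp before the start site of the single transcript RE and within an intron of the other 5 transcripts. The other 3 annotated start sites of ACC had no reproducible summit nearby. The relaxed list had a summit of 69.8 at 94 bp before the RF start and one of 96.1 at 474 bp past it. The nearest relaxed summit to the start shared by RA, RB and RC had 57.5 and lay 896 bp before it, and the nearest to the first start, that of RG, lay 2054 bp away. ACC therefore had 1 strong internal promoter peak, weak summits of the relaxed list near the RF start and no listed summit within 500 bp of the other starts.

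FASN1 (FBgn0283427, 2L:3056598-3068177, plus strand), the fatty acid synthase gene downstream of ACC, had the weakest best summit of the 7. The peak at 2L:3056424-3056853 had its summit 41 bp past the start of transcript RA, in its 5′ UTR. Its signal was 149.9 (rank 4889), with 61.9 in replicate 2 (rank 6861) and 92.8 in replicate 3 (rank 3871). Replicate 2 alone thus ranked FASN1 below its own strongest 5703 peaks, while replicate 3 ranked it within them. A further reproducible summit, at 2L:3055851-3056280, lay 532 bp before the start, just outside the 500 bp window, and is not among the 11. Its signal was 152 (rank 4763), with 95.3 in replicate 2 (rank 3238) and 64.4 in replicate 3 (rank 7255), so it and the FASN1 summit changed order between the replicates. It lay within the neighbouring fatty acid synthase gene FASN2, in the 3′ UTR, 77 bp from the end of that gene. Relaxed summits below the reproducible list had 80.8 at 309 bp before the RA start of FASN1 and 62.9 at 244 bp past it. The other annotated start, that of transcript RC, lay 350 bp past the FASN1 summit and 147 bp past the relaxed summit of 62.9. A TATAAA match, printed above, lay 29 bp upstream of the annotated RA start.

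Desat1 (FBgn0086687, 3R:12439600-12447616, plus strand) is annotated with 5 start sites, and its only reproducible summit lay between them. The peak at 3R:12442786-12443215 had its summit 900 bp past the start of transcript RE and 581 bp before that of RB, in an intron of 3 transcripts. Its signal was 184.9 (rank 3331), with 107 in replicate 2 (rank 2523) and 79.8 in replicate 3 (rank 5100). Near the Desat1 starts themselves there were only weaker summits of the relaxed list, or none. At the start of RC a relaxed summit of 121.7 lay 31 bp past the start, with 41.6 in replicate 2 and 72.0 in replicate 3. This was the strongest peak at any of the 7 genes that missed the reproducible list. The first start, that of RA, had a relaxed summit of 94.3 at 176 bp past it. RE had no listed summit within 500 bp, the nearest being the one at RC, 643 bp before the RE start. RB and RD had the same nearest relaxed summit, 185 bp past RB and 274 bp before RD. It had only 38.0, with a −log10 q of 0.573.

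SREBP (FBgn0261283, 3L:19793935-19798979, plus strand), the regulator of the synthesis genes, had a summit just beyond the promoter window. The peak at 3L:19794383-19794507 was only 125 bp wide, with its summit 542 bp past the single start site, in an intron of all 4 transcripts. Its signal was 222 (rank 2316). Replicate 2 had a summit of 98.4 at 17 bp from it (rank 3030), while the nearest summit of replicate 3, at 127 (rank 2117), was 132 bp away. The pooled list had a further summit at 745 bp past the start with a signal of 120.8, and the same replicate 3 summit lay 71 bp from that one. Replicate 3 therefore listed 1 summit between the 2 that the pooled list separated. At the start site itself, the nearest relaxed summit was weak, with 44.4 at 160 bp past it.

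The triglyceride synthesis gene mdy (FBgn0004797, 2L:16816660-16826964, plus strand) had 2 summits of unlike standing. The peak at 2L:16816830-16817035, 206 bp wide, had a signal of 322 (rank 1046), with 199 in replicate 2 (rank 575) and 144 in replicate 3 (rank 1651). Its summit was 219 bp past the start of RA, RB and RC and 229 bp before the start of RE, inside a 5′ UTR of 1 transcript and an intron of 2 others. It also lay within CG13280, a gene on the opposite strand. The other peak, 2L:16824852-16825281, had its summit 8407 bp past the first start, in an intron of all 4 transcripts, with a signal of 152 (rank 4806). That summit lay 140 bp past the start of Cse1, which encodes an export receptor of importin alpha, so it belongs to a promoter of another gene as much as to mdy. Replicate 3 had a summit of 81.6 there (rank 4931), and replicate 2 listed none, its nearest summit lying 4812 bp away. The promoter peak of mdy was thus seen in both replicates, and the distal one in replicate 3 only.

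The lipase gene bmm (FBgn0036449, 3L:14776496-14786412, minus strand) had 4 summits, more than any other of the 7. Of the genes in the same length range, 2.96% had 4 or more. The strongest peak, 3L:14781107-14781451, lay in an intron with its summit 5159 bp past the only start site. It had a signal of 413 (rank 617), with 249 in replicate 2 (rank 309) and 175 in replicate 3 (rank 1116), both summits within 39 bp. The next, 3L:14782626-14783055, lay 3571 bp past the start in an intron with a signal of 196 (rank 2970). The replicates ranked it far apart, with 55.7 in replicate 2 (rank 8082) and 138 in replicate 3 (rank 1790).

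The remaining pair of bmm summits was weaker and less exactly placed. At 3L:14784779-14785208 the summit lay 1418 bp past the start in an intron, with a signal of 145 (rank 5108), 94.4 in replicate 3 at 27 bp and 59.2 in replicate 2 at 147 bp. The replicate 2 summit was also the nearest one to a relaxed pooled summit of 107 that lay 1217 bp past the start. At 3L:14786084-14786513 the summit lay 113 bp past the start, in the 5′ UTR, with a signal of 159 (rank 4450), 123.7 in replicate 2 at 8 bp and 61.5 in replicate 3 at 142 bp. It was also 492 bp before the start of Tdrd3, a gene for a Tudor domain protein that is transcribed away from bmm. The bmm promoter peak was therefore weaker than the strongest intronic peak in the reproducible list and in each replicate.

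**Figure D2:**
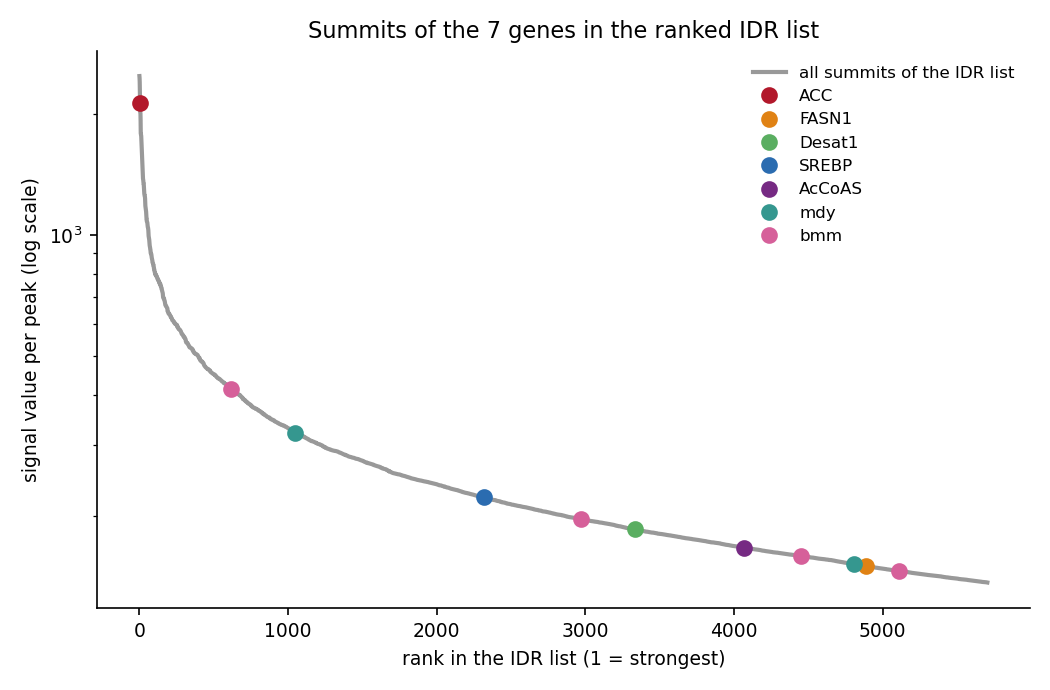
Signal value per peak (log axis) against rank in the reproducible list for all 5703 summits (grey line), with the 11 summits of the 7 genes as coloured points. ACC stands near the top at rank 5, bmm and mdy follow at ranks 617 and 1046, and 7 of the 11 summits lie below the median signal of 200.1.

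Set in order by the strongest summit of each gene, the signals ran ACC, bmm, mdy, SREBP, Desat1, AcCoAS and FASN1. ACC, bmm and mdy held the first 3 places in this order in replicate 2 and in replicate 3. The order of the other 4 genes was only partly stable between replicates. SREBP stood at place 5 in replicate 2 and place 4 in replicate 3, Desat1 at places 4 and 7, FASN1 at places 7 and 5, and AcCoAS at place 6 in both. These places use the nearest replicate summit at any distance. For SREBP in replicate 3 it lay 132 bp away, beyond the 100 bp matching distance used below. SREBP thus stood above AcCoAS and FASN1 in both replicates, as in the reproducible list. The signals there, 149.9 to 222, do not otherwise order these 4 genes beyond the spread between replicates. Over all 11 summits the median signal was 184.9 and the median rank 3331, with 4 summits above the list's median signal and 7 below it. Among the strongest 2851 reproducible peaks, where 13.8% of protein-coding genes had a summit, ACC, SREBP, mdy and bmm remained.

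The replicates were compared by looking for a replicate summit within 100 bp of each reproducible summit. Both replicates had one for 7 of the 11 summits, beside 5217 of all 5703 (91.5%). The 4 others were those of SREBP, the mdy summit at Cse1 and the pair of bmm summits nearest its start. For the 7 matched summits, ranks are compared because the scales of the replicate lists may differ. ACC ranked 15 in both lists, and AcCoAS ranked 4408 in replicate 2 and 4623 in replicate 3. The strongest bmm summit, the mdy promoter summit and the Desat1 summit ranked higher in replicate 2, at 309, 575 and 2523, than in replicate 3, at 1116, 1651 and 5100. FASN1 went the other way, with rank 6861 in replicate 2 and 3871 in replicate 3. The bmm summit 3571 bp past the start had the widest gap of the 7, with rank 8082 in replicate 2 and 1790 in replicate 3.

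**Figure D3:**
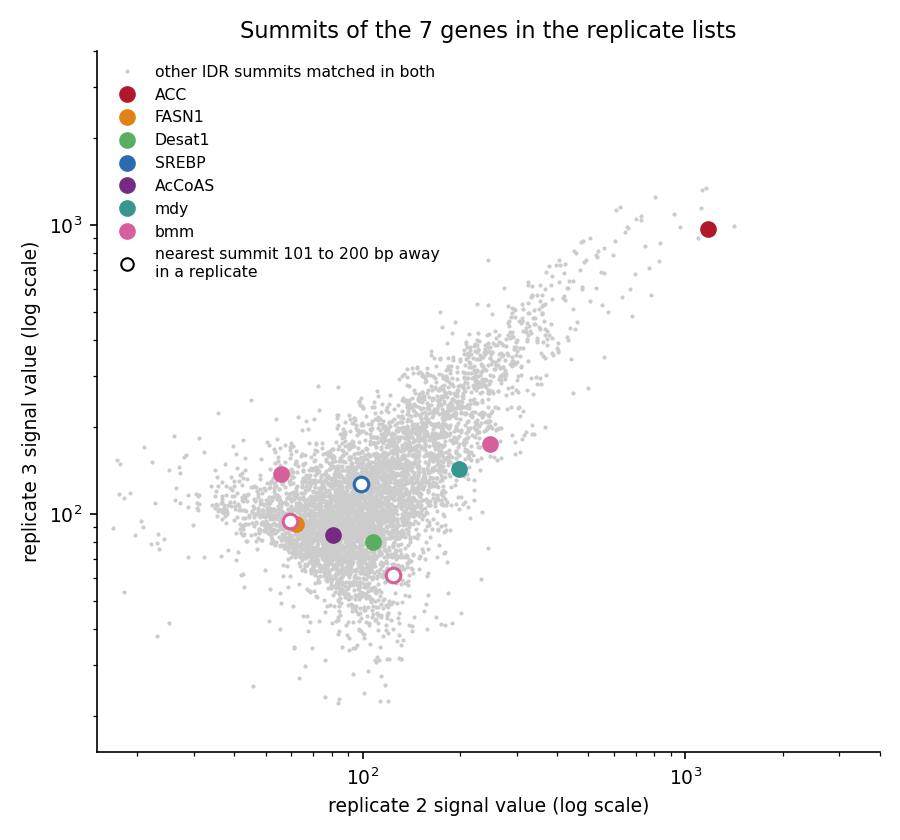
Signal in replicate 3 against signal in replicate 2, both on log axes, for reproducible summits matched in both replicates (grey) and for the fat genes (coloured); the scales of both lists are the authors' own and may differ. Open circles are summits whose nearest summit in a replicate lay farther than 100 bp away; the mdy summit at Cse1 is left out because replicate 2 listed none near it, and ACC stands at the upper right at 1176 and 964.

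When each replicate was read alone, using as many of its strongest peaks as the reproducible list holds, 6 of the 7 genes had a summit in replicate 2, beside 23.0% of protein-coding genes, and 7 in replicate 3, beside 22.6%. FASN1 was the gene without one in replicate 2. The relaxed pooled list, which holds background too, added 28 summits at the 7 genes, for 39 in all. The 28 had signals of 33.7 to 121.7 with a median of 63.1. Their −log10 q went down to 0.471, at Desat1, beside 4.18 for the reproducible peaks. In the relaxed pooled list 51.3% of protein-coding genes had a summit, and all 7 of these. The weakest reproducible summit at the fat genes was that of bmm at 145.5, and the strongest one left out was that of Desat1 at 121.7. Of the 28 weaker summits, 3 had the same q-value as the reproducible peaks, those of Desat1, SREBP and AcCoAS with signals of 121.7, 120.8 and 116.0.

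The sequences under the summits were searched on both strands for 11 motifs, which may overlap one another. They were the TATA box TATAAA, the GAGA factor site GAGAGAG, the forkhead protein site GTAAACA, the GATA protein site AGATAAG and the E-box of helix-loop-helix proteins CACGTG. A longer E-box TCACGTGA contains the shorter one. The others were the sterol regulatory element TCACNCCAC and a longer form that contains it, the DREF site TATCGATA, the CREB site TGACGTCA and the ecdysone response element. Within 50 bp on either side of the summit, 3 of the 11 summits held a match, beside 22.8% of all reproducible summits. These were GAGAGAG at the strongest bmm summit, as 2 overlapping copies (6.21% of all), GTAAACA at the mdy promoter summit (2.77%) and TATAAA at the mdy summit at Cse1 (11.8%). Within 100 bp on either side, 7 of the 11 held a match, beside 39.9%. The added ones were TATAAA at FASN1 and at the bmm summits 1418 bp and 113 bp past the start (20.9% of all), AGATAAG at the first of these bmm summits (2.30%) and the shortened ecdysone response element at AcCoAS (0.351%). The letters of the E-box, both sterol regulatory elements, the DREF site and the CREB site were not in these windows at any of the 11 summits. A match says only that the letters are there.

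In the promoters of the 7 genes, taken as 250 bases before to 50 after each of 18 start sites, neither sterol regulatory element was present, and TCACNCCAC was in 0.514% of the 19253 distinct promoters of protein-coding genes. CACGTG was in 2 of the 18, at Desat1 and mdy (4.01% of all promoters), TATCGATA in 2, at Desat1 and bmm (7.98%), and GTAAACA in 4 (8.87%). GAGAGAG was also in 2, at the RE start of ACC and the RA start of FASN1 (7.62%). AGATAAG was in 2, at Desat1 and AcCoAS (4.56%), and the shortened ecdysone response element in 1, at the RD start of AcCoAS (0.338%). TATAAA was in 7 of the 18 (42.2%). The bmm TATAAA lay 40 bp past the annotated start, in the leader. Base composition varied widely among the summits. The share of G and C in the 50 bp on either side was lowest at SREBP and at the bmm summit 1418 bp past the start, at 29.7% each, and highest at the strongest bmm summit at 54.5%, with ACC at 53.5%. The median over the 11 was 44.6%, beside 43.6% over all reproducible summits.

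Other genes of fat metabolism, 55 in 11 roles, were read in the same way. Signals given for them are those of the strongest summit of each gene, which was not always a promoter summit. A reproducible summit was found in 26 of the 55 (47.3%) and a promoter summit in 25, beside the 22.9% and 20.0% of all protein-coding genes given above. Of the 26, 8 were the listed genes of fatty acid oxidation, described at the end. This list too was chosen with earlier results of these data known. The median length of the 55 genes was 4009 bp, above the 2166 bp of all protein-coding genes, and no share was taken for genes of like length. Of the 55, 29 had a summit in replicate 2 read alone and 28 in replicate 3. In the supply of acetyl-CoA, precursors and NADPH, 4 of 6 genes had a summit. Zw, glucose-6-phosphate dehydrogenase, had 812, sea, the mitochondrial citrate carrier, had 453, and Men, malic enzyme, had 209.9, while ATPCL, the ATP citrate lyase, had none. The Zw summit of 812 lay outside the promoter window, and the Zw promoter summit had 171.5. FASN2 was the only one of 2 other fatty acid synthase genes with a summit, the one of 152 at its far end described above beside the FASN1 start. In elongation and desaturation 1 of 9 genes had a summit, the elongase gene Baldspot with 404, and with 198 at its promoter. These 9 genes are short, with a median length of 1544 bp, and no test was made.

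Around the regulators, SCAP, the escort of SREBP, had a summit of 141, and the proteases S1P and S2P had none. Of 3 sugar-sensing regulators only sug (sugarbabe) had one, at 284. In glycerolipid assembly, the pathway that mdy ends, 3 of 8 genes had a summit. Lpin, the phosphatidate phosphatase, had 1166 (rank 43), with 471 in replicate 2 and 701 in replicate 3, and mino and Gpat4, glycerol-3-phosphate acyltransferases, had 139 and 138. Dgat2, the other diacylglycerol acyltransferase gene, had none. Of 5 genes of the lipid droplet coat and its formation 3 had a summit, the perilipin gene Lsd-2 with 744, Seipin with 362 and Fitm with 178. The Lsd-2 summit of 744 lay far inside the gene, and the Lsd-2 promoter summit had 170.5. The Seipin summit also lay at the promoter of Tsp3A, and the Fitm summit at that of AlaRS-m. Among 5 other lipase genes, puml with 366 and Hsl with 163 had a summit. At the promoter of puml the signal was 181. The long-chain acyl-CoA synthetase gene Acsl had 6 summits, the strongest at 331, and Mtp, which loads lipoproteins with lipid, had 2, the stronger at 190.3. Their strongest promoter summits had 161 and 136. Acsl and Mtp were each the only gene with a summit among the 3 listed in their role.

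**Figure D4:**
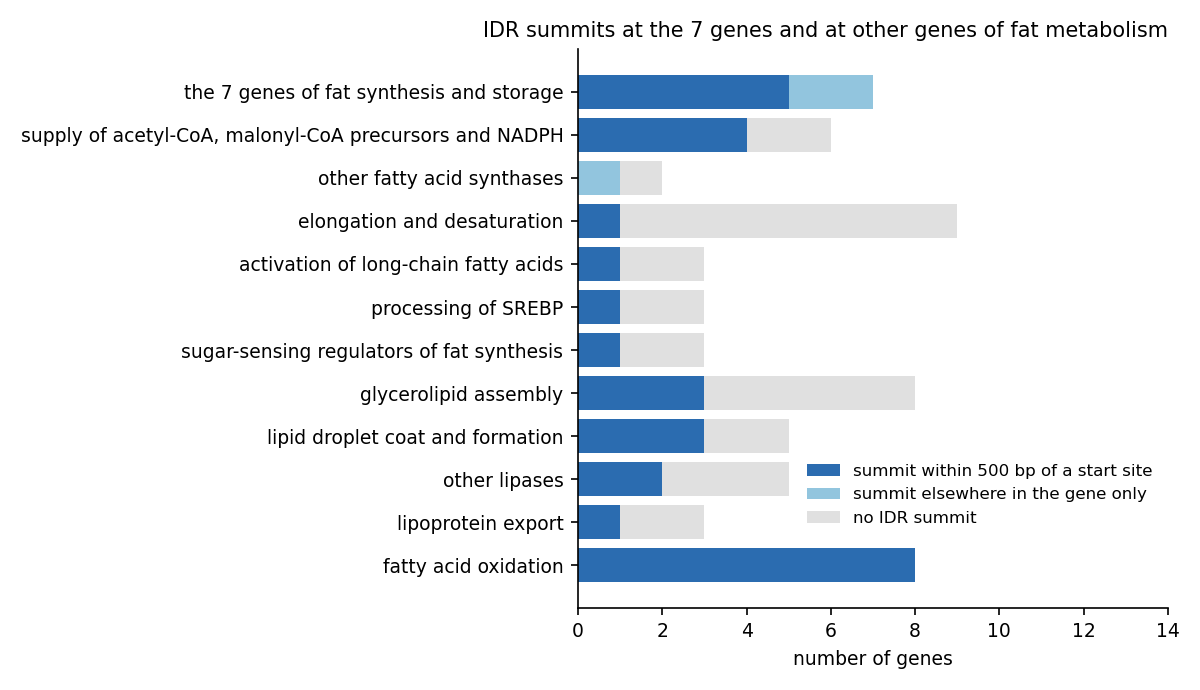
Number of genes (horizontal axis) with a reproducible summit within 500 bp of a start site (dark), elsewhere in the gene only (light) or with none (grey), for the 7 genes in the top bar and for the 11 roles of other fat metabolism genes below. All 7 genes in the top bar had a summit, beside 26 of the 55 other genes; the bar for elongation and desaturation shows 1 of 9 genes with one.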

How the data were processed

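ChIP-seq was done on whole prepupae of 1 group with 2 biological replicates, per the labels; tissues are mixed, and the replicates' spread is that of 2 samples. The deposited signal values (per peak, never negative) and −log10 q-values come from the authors' dm6 peak lists. Per the deposited description of the lists, relaxed lists were called from alignments against a control alignment, the pooled list from both replicates, and the IDR list derived from these. Neither labels nor lists name the aligner, peak caller, IDR threshold or signal scale. The authors' dm3 lists were not used. Read depth is unknown, so no interval is given.

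Summits were assigned to genes of the Ensembl annotation of the same assembly and to RefSeq sequence with Python 3.11.15, pandas 2.3.3 and NumPy 2.4.6; matching and counting were tested on simulated peaks. Ranks are by signal within a list. With 1 group there was no contrast and no test. The text names the 7 genes, genes with a start site within 500 bp of their summits, and up to 3 genes per role with the strongest summit. The genes without a summit named beside them were chosen after their values were seen. So were CG13280, Ctps, CPT2, Acox57D-d, Hnf4 and the genes at the Seipin and Fitm summits. Members and lists were chosen with earlier results of these data known. Alternatives were other windows, the strongest 2851 peaks, single replicates, the relaxed list and other matching distances.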

Additional observations from a re-analysis of the deposited data

How the results depend on the processing

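No paired analysis was possible because there was only 1 group. All 7 genes kept a summit with promoter windows of 250 bp and 1000 bp, with 1 start site per gene and in the relaxed list; 11 and 12 summits were assigned with the narrow and wide windows, the added one being that at the end of FASN2 before FASN1, and 9 when summits at another gene's promoter were left out. Restricting the list to its strongest 2851 peaks left 4 genes with 4 summits, and using the whole relaxed list gave 39 summits; both follow from the number of peaks used. Reading each replicate without the other gave 6 to 7 genes with a summit and 9 to 12 summits. Within 100 bp, 9 of the 11 summits were matched in replicate 2 and 9 in replicate 3, but only 7 were matched in both. The median rank was 2523 over those of replicate 2 and 3750 over those of replicate 3, so the medians cover partly different summits. The unmatched summits are left out of these medians. The number of genes with a promoter summit, whose alternatives were added after seeing the data, was 5, and became 2 among the strongest 2851 peaks, 4 with either replicate left out or 1 start site per gene, and 7 with 1000 bp. The 7 summits found in both replicates became 4 when summits had to lie within 50 bp, 10 within 200 bp, and 9 when the replicate peak had only to hold the summit. Widening the motif window to 100 bp on either side moved the summits with a match to 7, against 3 in the narrower window. The background of genes of like length was also added after seeing the data. Peaks below the end of each relaxed list cannot be seen, and with 2 replicates the order of weak summits is uncertain.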

Other observations

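All 8 genes listed under fatty acid oxidation had a promoter summit, beside 5 of the 7 fat synthesis and storage genes and 20.0% of protein-coding genes. The 8 include Hnf4, a transcription factor gene and not that of an oxidation enzyme, which is 22386 bp long and had 5 summits. The strongest was yip2, a mitochondrial thiolase gene, with a signal of 2016 (rank 7), close to the 2133 of ACC; it had 921 in replicate 2 and 1092 in replicate 3, against 1176 and 964 for ACC. Mtpalpha and Mtpbeta, the subunits of the trifunctional protein, had 1144 and 919. The strongest summits of the other 5 genes had signals of 151 to 629. Among the strongest 5703 peaks of a single replicate, 7 of the 8 had a summit in each replicate, with Acox57D-d missing in replicate 2 and CPT2 in replicate 3, where the nearest listed summit lay 55267 bp away. The list was chosen with earlier results of these data known, and the difference between the gene groups was not tested.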
